A study of Mus musculus with 4 samples.

Results

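The genes described here are the acute-phase proteins of the liver and targets of the IL-6/STAT3 pathway. They are 36 genes chosen by name, each found by its gene symbol in a table of 22103 entries. They were measured by RNA sequencing of whole liver from alcohol-fed mice, in 2 WT livers and 2 livers labelled KO. Per the study's methods, the KO animals are Brg1LKO mice, in which an Alb-Cre transgene, active in hepatocytes, deletes the Smarca4 f/f allele, the gene for the chromatin remodelling ATPase Brg1. The study describes the knockout as specific to hepatocytes, and values of whole liver do not show which cells keep that gene. All 4 animals drank alcohol for 15 days, and per the methods they were 8-week-old males on a chronic-plus-binge ethanol feeding. The comparison asks what loss of Brg1 from hepatocytes changes in the liver of these mice. Livers of mice without alcohol were not analysed here, so it is between genotypes under alcohol and holds no measure of the alcohol response. The labels number the livers 1 and 2 in each genotype and do not say that equal numbers share a litter, day or cage. With 2 livers a group, the smallest two-sided p of an exact permutation test is 0.333, so tests are from a limma model fitted over all expressed genes.

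The acute-phase response is the change that infection or injury sets off in the proteins that hepatocytes release into blood. Macrophages and other cells release IL-6, which binds the IL-6 receptor and its partner gp130 on hepatocytes, and the kinases bound to gp130 then phosphorylate STAT3, which enters the nucleus. IL-1 and TNF act beside it through NF-kB, and the C/EBP factors take part at many of the same genes. Positive acute-phase proteins such as serum amyloid A rise in this response, negative ones such as albumin fall, and SOCS3 ends the signal by blocking the kinases.

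Promoters are shown for 6 of the genes, because the results turn on how far these genes moved together or apart between livers. Each line is a RefSeq window on GRCm38.p6, from 250 bases before the annotated start to 50 after it, 5′ to 3′ on the gene's own strand. Capitals mark every match to 3 motifs searched on both strands. These are the STAT motif TTCNNNGAA, the C/EBP motif TTGCNNAA and the NF-kB motif GGNNTTTCC, and none of the marked matches overlap. Saa1 and Saa2 are the most variable pair, Lcn2 varied with them, Fga and Fgb are fibrinogen chains that differed from them in pattern, and Steap4 is the gene that passed the threshold between genotypes.
Saa1, chr7:46742931-46743230, minus strand: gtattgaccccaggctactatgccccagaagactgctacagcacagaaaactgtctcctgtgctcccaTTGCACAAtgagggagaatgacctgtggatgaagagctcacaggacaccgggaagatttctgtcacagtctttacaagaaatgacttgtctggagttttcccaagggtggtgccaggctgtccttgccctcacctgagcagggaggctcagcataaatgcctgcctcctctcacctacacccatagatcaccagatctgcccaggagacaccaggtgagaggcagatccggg
Saa2, chr7:46751583-46751882, plus strand: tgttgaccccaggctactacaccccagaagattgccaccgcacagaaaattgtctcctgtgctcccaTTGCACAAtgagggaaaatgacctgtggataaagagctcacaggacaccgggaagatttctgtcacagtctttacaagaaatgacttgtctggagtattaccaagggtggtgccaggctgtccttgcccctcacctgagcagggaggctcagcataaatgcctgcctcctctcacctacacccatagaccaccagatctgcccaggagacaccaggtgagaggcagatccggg
Lcn2, chr2:32387690-32387989, minus strand: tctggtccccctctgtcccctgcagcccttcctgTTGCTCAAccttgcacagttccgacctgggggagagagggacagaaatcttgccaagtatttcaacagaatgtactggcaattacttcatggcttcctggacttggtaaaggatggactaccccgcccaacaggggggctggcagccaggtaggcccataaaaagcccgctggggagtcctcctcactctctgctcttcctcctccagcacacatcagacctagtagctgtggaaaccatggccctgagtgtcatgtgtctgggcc
Fga, chr3:83025903-83026202, plus strand: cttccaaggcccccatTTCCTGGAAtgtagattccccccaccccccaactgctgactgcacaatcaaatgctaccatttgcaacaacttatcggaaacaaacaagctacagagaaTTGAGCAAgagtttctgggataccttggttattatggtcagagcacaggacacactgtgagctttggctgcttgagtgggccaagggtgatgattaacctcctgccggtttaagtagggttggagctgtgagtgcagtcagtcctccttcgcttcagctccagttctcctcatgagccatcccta
Fgb, chr3:83049814-83050113, minus strand: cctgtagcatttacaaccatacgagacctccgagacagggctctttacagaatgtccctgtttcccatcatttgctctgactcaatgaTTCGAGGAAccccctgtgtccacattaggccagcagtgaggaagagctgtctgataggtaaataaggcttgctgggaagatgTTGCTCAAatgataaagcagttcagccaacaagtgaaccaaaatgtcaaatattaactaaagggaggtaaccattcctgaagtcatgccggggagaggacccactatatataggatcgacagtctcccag
Steap4, chr5:7960222-7960521, plus strand: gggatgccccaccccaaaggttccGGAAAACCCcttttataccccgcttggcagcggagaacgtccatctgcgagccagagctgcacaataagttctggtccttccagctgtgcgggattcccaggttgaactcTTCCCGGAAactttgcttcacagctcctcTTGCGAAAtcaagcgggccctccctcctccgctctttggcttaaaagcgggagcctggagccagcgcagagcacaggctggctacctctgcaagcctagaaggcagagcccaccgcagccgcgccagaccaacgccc

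The Saa1 and Saa2 windows were alike at 287 of 301 aligned positions (95.3%), and each held the C/EBP match TTGCACAA, at 182 and 183 bases before the start. Lcn2 held a C/EBP match 216 bases before its start. Fga and Fgb each held a STAT match, at 234 and 162 bases before the start, and a C/EBP match, at 135 and 80 bases. The window of Fgg, the remaining fibrinogen chain and not shown above, held no match to any of the motifs. Whether the motifs relate to how the genes varied between livers was not tested. Steap4 held all 3 motifs, with the STAT match TTCCCGGAA 116 bases before its start. Of the 36 genes, 29 had a window in the RefSeq table. The STAT motif was in 6 of the 29 (20.7%), namely Apcs, Fga, Fgb, Itih4, Socs3 and Steap4, and in 8.30% of all 32851 windows of this length. The C/EBP motif was in 16 of the 29 (55.2%) and in 10.8% of all windows, and the NF-kB motif in 5 (17.2%) and in 5.82%. These member shares count genes, some with more than 1 window, while the others count windows. By window, the STAT, C/EBP and NF-kB motifs were in 6, 16 and 6 of the 33 windows of these genes. A match is a run of letters and not a measured binding site.

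Values are deposited FPKM, fragments scaled by transcript length and by the mapped total of the library, and each pair of values gives replicate 1 and then replicate 2. Smarca4 was at 1.78 and 1.95 FPKM in WT against 0.608 and 0.579 FPKM in Brg1LKO, which is the genotype the labels give (log2 fold change −1.50, limma unadjusted p = 0.000548). The depth recovered from the steps of the low FPKM values was 72593971 to 80928379 reads a liver. The study's threshold, over 2-fold with a p under 0.05 before adjustment, was applied here to limma on log2(FPKM + 0.1) with genes of mean FPKM 0.1 or more. It was passed by 121 of 12346 genes (0.98%), 54 of them higher (0.437%) and 67 lower in Brg1LKO livers. When livers were scaled to an equal FPKM total outside the 36 genes, 61 were higher and 39 lower, and the median of all genes moved by 0.12 on the log2 scale. None of the 12346 genes tested passed an adjusted p of 0.05 in limma (0 genes, against 247 at an unadjusted p under 0.05), and the lowest adjusted p was 0.541. The lowest limma adjusted p among the 36 genes was 1.00, and the p-values given with their log2 fold changes are unadjusted. In bulk liver, fewer cells of a type and less RNA per cell cannot be told apart.

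Of the 36 genes, 35 passed the expression filter and were tested, and 1 of the 35 passed the threshold: Steap4, a metalloreductase, was higher in Brg1LKO livers. Most of the others, like most of all genes tested, differed between genotypes by less than the livers of a genotype differed from each other. The log2 fold change was above 0 in 31 of the 35 and below 0 in 4, where 46.1% of all genes tested were above 0. Its median was 0.30 over the 35 genes and −0.02 over all genes tested. The direction of the 35 turned on 1 liver. Without WT replicate 2, the log2 fold change was above 0 in 10 of the 35, 27 changed sign and the median was −0.06. Without WT replicate 1, it was above 0 in 31, with a median of 0.72. The larger of the 2 differences within a genotype exceeded the difference between genotypes in 32 of 35 genes (91.4%), and over all genes tested in 88.2%. The 3 exceptions were Stat3, Il6ra and Lbp.

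**Figure D1:**
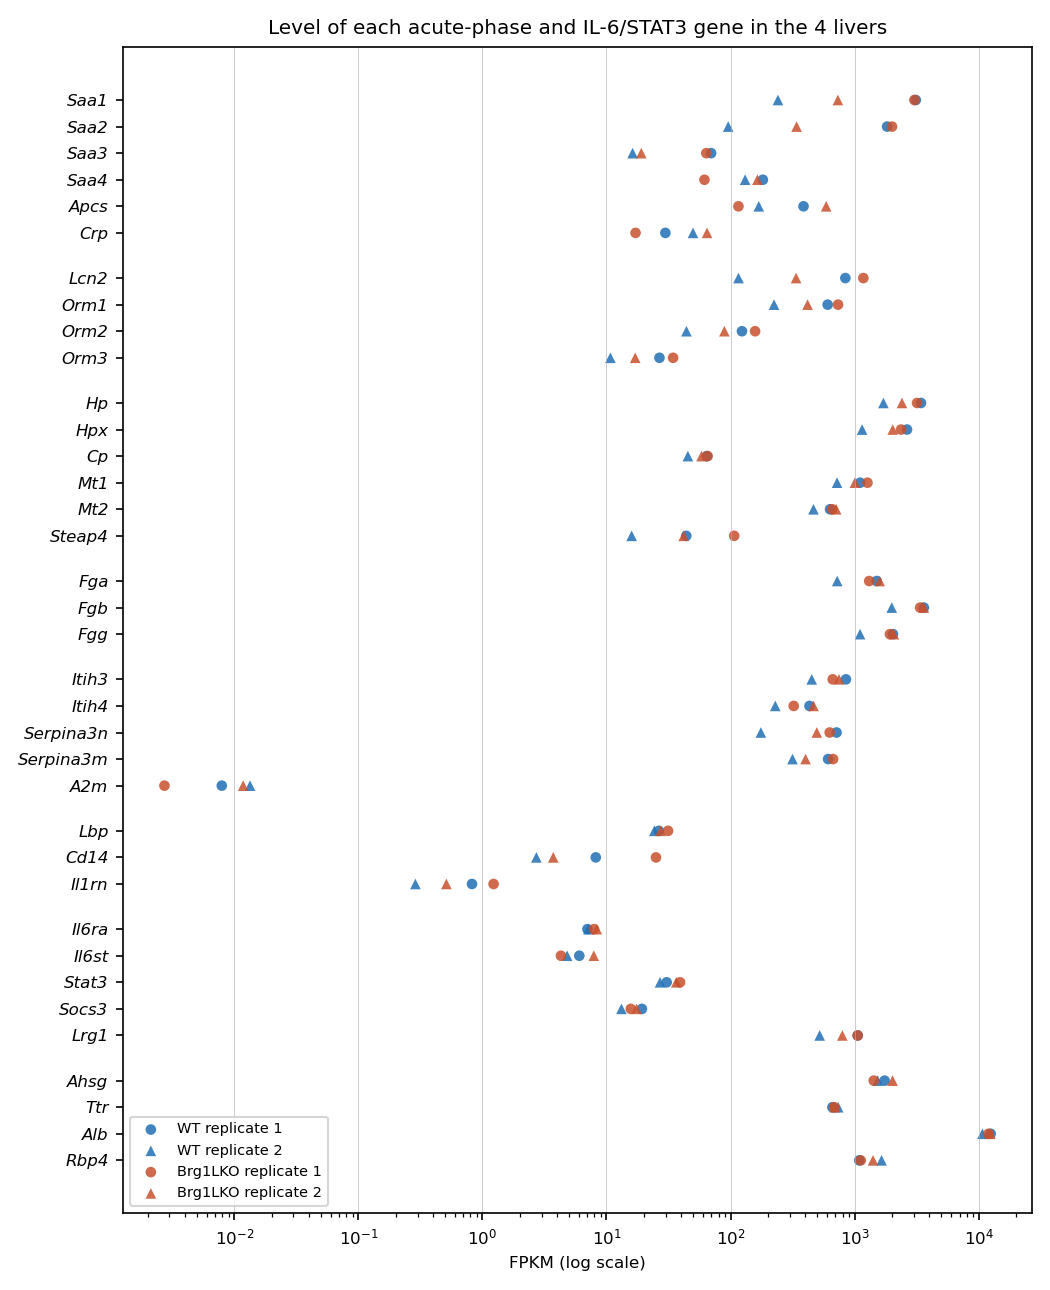
FPKM of the 36 genes on a log scale, 1 point per liver, with WT in blue, Brg1LKO in red, replicate 1 as circles and replicate 2 as triangles, and gaps between the functional groups. Saa1 and Saa2 span more than 10-fold with both circles high and both triangles low, while the fibrinogen chains set WT replicate 2 apart from the other livers and the negative acute-phase genes at the bottom lie close together.

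Serum amyloid A proteins, which travel on high-density lipoprotein and rise steeply in the acute phase, included the 2 genes that varied most between the WT livers. The genes form a cluster on chromosome 7, with Saa3 at chr7:46711998-46715700, Saa4 at chr7:46727998-46732603, Saa1 at chr7:46740497-46742980 and Saa2 at chr7:46751833-46754313. Saa1 was at 3111 and 241 FPKM in WT against 3030.1 and 733 FPKM in Brg1LKO. Replicate 1 was high and replicate 2 low in both genotypes, with a 12.9-fold difference between the WT livers and a 4.14-fold difference between the Brg1LKO livers, and the genotypes overlapped. The mean was 1676 ± 2029.8 FPKM in WT and 1881 ± 1624 FPKM in Brg1LKO livers (SD, n = 2), and the log2 fold change was 0.78, SE 0.86, limma unadjusted p = 0.376. Saa2, whose promoter above is nearly that of Saa1, was at 1826 and 95.7 FPKM in WT against 2002 and 341 FPKM in Brg1LKO. Replicate 1 was again the high liver of each genotype, 19.1-fold apart in WT and 5.88-fold in Brg1LKO (log2 fold change 0.98, SE 0.99, limma unadjusted p = 0.339). The Saa1 and Saa2 transcripts are 93.9% identical, with no stretch of 100 bases shared exactly. Reads of 1 gene could still be counted for the other, so their separate levels are uncertain.

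Saa3, a form made by macrophages as well as by liver, was at 69.7 and 16.2 FPKM in WT against 63.7 and 19.1 FPKM in Brg1LKO. The mean was 43.0 ± 37.8 FPKM in WT and 41.4 ± 31.6 FPKM in Brg1LKO livers (SD, n = 2), and the log2 fold change, a difference between means of logs that here has the opposite sign to the means, was 0.050, SE 0.61, limma unadjusted p = 0.935, changing sign to −0.031 under quantile normalization. Replicate 1 was 4.29-fold and 3.34-fold above replicate 2 in WT and in Brg1LKO livers. Saa4, the constitutive serum amyloid A, was at 182 and 131 FPKM in WT against 61.6 and 164 FPKM in Brg1LKO. Its order was another, with only Brg1LKO replicate 1 low (log2 fold change −0.62, SE 0.42, limma unadjusted p = 0.167). The 2 pentraxins, secreted pattern-recognition proteins that bind bacterial and damaged-cell surfaces, followed Saa4 in having their lowest value in Brg1LKO replicate 1. Apcs, serum amyloid P and the main acute-phase pentraxin of the mouse, was at 387 and 169 FPKM in WT against 116 and 589.9 FPKM in Brg1LKO. Crp, C-reactive protein, was at 29.8 and 49.8 FPKM in WT against 17.1 and 64.6 FPKM in Brg1LKO. For both genes the Brg1LKO livers lay on either side of the WT livers, 5.10-fold apart for Apcs and 3.77-fold for Crp. Summed over these 6 genes, the level was 5607 and 702 FPKM in WT against 5290.2 and 1911 FPKM in Brg1LKO.

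Lipocalin 2 and the orosomucoids had the same order of livers in all 4 genes, from Brg1LKO replicate 1 at the top through WT replicate 1 and Brg1LKO replicate 2 to WT replicate 2. Lcn2, a siderophore-binding protein that keeps iron from bacteria, was at 842 and 116 FPKM in WT against 1175 and 337 FPKM in Brg1LKO. The 2 genotypes alternated in this order, so they overlapped, and the mean of 479 ± 513 FPKM in WT and 756 ± 593 FPKM in Brg1LKO livers (SD, n = 2) came with a log2 fold change of 1.01, SE 0.71, limma unadjusted p = 0.177. Orm1, which codes for alpha-1-acid glycoprotein, a binder of drugs and steroids, was at 606 and 224 FPKM in WT against 735 and 418 FPKM in Brg1LKO. Its livers were 2.71-fold apart in WT and 1.76-fold in Brg1LKO (log2 fold change 0.59, SE 0.44, limma unadjusted p = 0.2). Orm2 was at 124 and 44.1 FPKM in WT against 158 and 89.2 FPKM in Brg1LKO, with a log2 fold change of 0.68, SE 0.45, limma unadjusted p = 0.152. Orm3 was the lowest of the 3, at 26.7 and 10.8 FPKM in WT against 34.4 and 17.0 FPKM in Brg1LKO, with a log2 fold change of 0.51, SE 0.45, limma unadjusted p = 0.276. The 3 orosomucoid genes lie side by side on chromosome 4 (chr4:63344560-63348163 for Orm1, chr4:63356162-63359511 for Orm3 and chr4:63362449-63365878 for Orm2). Orm1 and Orm2 transcripts are 91.0% identical and share 6.95% of their 100-base windows exactly, so their separate levels are uncertain.

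Among the haem and metal binders, Steap4 passed the threshold and the other 5 did not. Steap4, at chr5:7960457-7982213, reduces iron and copper at cell and endosome membranes and is known as a cytokine-responsive gene. It was at 43.9 and 16.0 FPKM in WT against 107 and 41.9 FPKM in Brg1LKO. Brg1LKO replicate 1 was the highest liver and WT replicate 2 the lowest, while WT replicate 1 lay just above Brg1LKO replicate 2, so the genotypes overlapped. The mean was 29.9 ± 19.8 FPKM in WT and 74.4 ± 46.0 FPKM in Brg1LKO livers (SD, n = 2), a 2.49-fold difference (log2 fold change 1.33, SE 0.49, limma unadjusted p = 0.0175). It stood at 0.61 without WT replicate 2 and at 0.66 without Brg1LKO replicate 1, and neither passed the threshold. With its size about the same, it also lost the call under median-ratio rescaling (1.37, limma unadjusted p = 0.124), quantile normalization (1.29, limma unadjusted p = 0.140) and an equal FPKM total outside the 36 genes (1.46, limma unadjusted p = 0.0545), and with no expression filter (1.33, limma unadjusted p = 0.0859). Its livers were 2.75-fold apart in WT and 2.55-fold in Brg1LKO. The SE of 0.49 is smaller than that spread alone would give, because limma draws the variance of a gene toward that of all genes.

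Hp, haptoglobin, which binds free haemoglobin, was at 3424 and 1705 FPKM in WT against 3183 and 2406 FPKM in Brg1LKO. Hpx, hemopexin, which binds free haem, was at 2642 and 1148 FPKM in WT against 2366 and 2027 FPKM in Brg1LKO. For both genes WT replicate 2 was the low liver and the Brg1LKO livers lay between the 2 WT livers. Cp, the copper ferroxidase ceruloplasmin, was at 64.3 and 45.3 FPKM in WT against 65.3 and 58.3 FPKM in Brg1LKO, and its Brg1LKO livers were 1.12-fold apart. Mt1, a metallothionein that binds zinc and copper, was at 1107 and 721 FPKM in WT against 1269 and 1005 FPKM in Brg1LKO. Mt2, its neighbour on chromosome 8 (chr8:94172664-94173568, with Mt1 at chr8:94179082-94180327), was at 634 and 466 FPKM in WT against 660.2 and 709.6 FPKM in Brg1LKO. Both Brg1LKO values of Mt2 were above both WT values, by a log2 fold change of 0.33, SE 0.31, limma unadjusted p = 0.306.

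**Figure D2:**
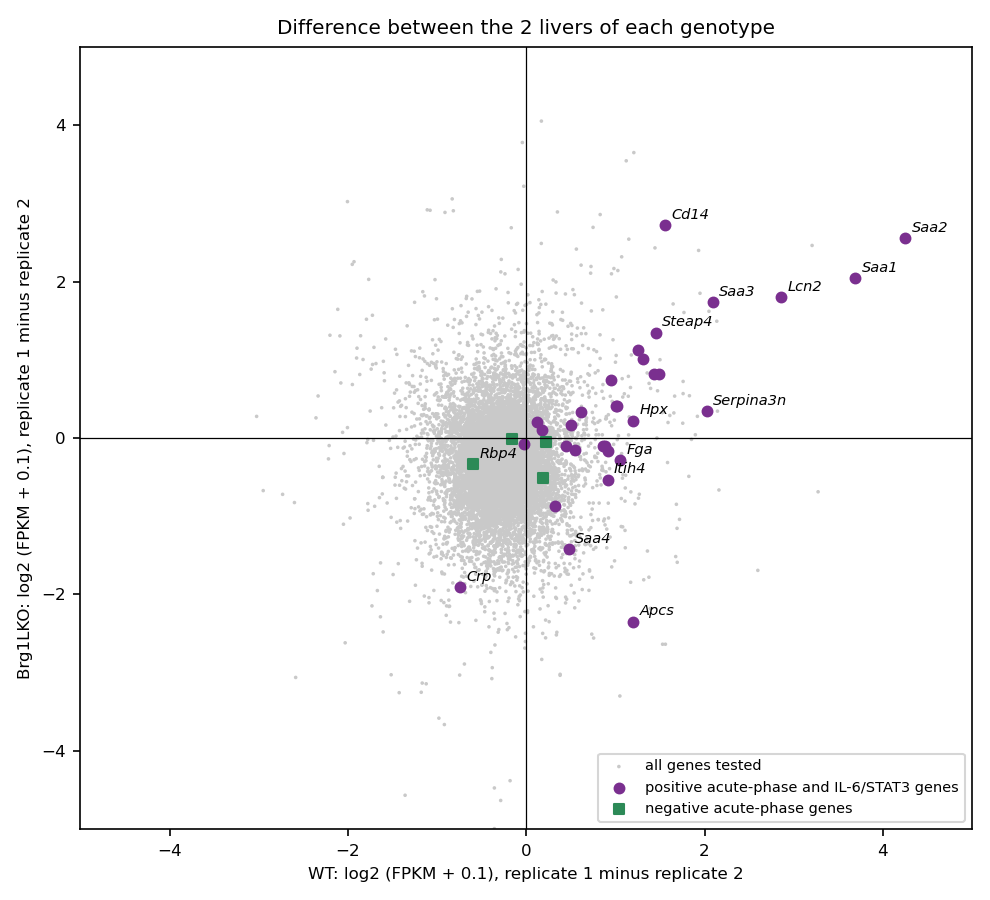
Difference between replicate 1 and replicate 2 on the log2 (FPKM + 0.1) scale, in WT livers on the x axis and in Brg1LKO livers on the y axis, for all genes tested (grey), the positive acute-phase and IL-6/STAT3 genes (purple) and the negative acute-phase genes (green squares). Saa1, Saa2, Saa3, Lcn2 and Cd14 lie far up and right, Apcs lies down and right, and Crp lies down and left.

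The 3 fibrinogen chains, which assemble into the clotting protein, moved together and with another pattern than serum amyloid A. They lie within 1 cluster on chromosome 3 (Fgg at chr3:83007724-83015049, Fga at chr3:83026076-83032263 and Fgb at chr3:83040141-83049863). Fga was at 1505 and 724 FPKM in WT against 1310.1 and 1591 FPKM in Brg1LKO. Fgb was at 3611 and 1991 FPKM in WT against 3372 and 3610.3 FPKM in Brg1LKO. Fgg was at 2036 and 1106 FPKM in WT against 1925 and 2071 FPKM in Brg1LKO. In all 3, WT replicate 2 was low and the other 3 livers lay near each other, the Brg1LKO livers 1.07-fold to 1.21-fold apart. The log2 fold changes were 0.47, 0.38 and 0.41, none passed the threshold, and without WT replicate 2 they were −0.06, −0.05 and −0.03.

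Protease inhibitors and hyaluronan binders were likewise lowest in WT replicate 2 in 4 of 4 genes tested. Serpina3n, an inhibitor of serine proteases of leukocytes, was at 715 and 175 FPKM in WT against 629 and 495 FPKM in Brg1LKO. Only WT replicate 2 stood apart, 4.07-fold under the other WT liver, and the log2 fold change was 0.66, SE 0.50, limma unadjusted p = 0.207. Serpina3m, a paralog in the same cluster on chromosome 12 whose transcript is 65.0% identical, was at 611 and 316 FPKM in WT against 670.3 and 402 FPKM in Brg1LKO. Itih3, a heavy chain of the inter-alpha-trypsin inhibitors that bind hyaluronan, was at 851 and 451 FPKM in WT against 666 and 747 FPKM in Brg1LKO. Itih4, a related plasma protein, was at 432 and 229 FPKM in WT against 323 and 466 FPKM in Brg1LKO. For these 3 genes the Brg1LKO livers overlapped the WT livers, with log2 fold changes of 0.24, 0.19 and 0.30. A2m, alpha-2-macroglobulin, is a classical acute-phase protein of the rat. It was near the limit of detection here, at 0.00794 and 0.0134 FPKM in WT against 0.00274 and 0.0118 FPKM in Brg1LKO, which is 1 to 5 estimated reads a liver, and it was not tested.

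Genes of endotoxin sensing and IL-1 antagonism split into 1 steady and 2 variable members. Lbp, the plasma protein that hands lipopolysaccharide to CD14, was at 26.4 and 24.3 FPKM in WT against 31.4 and 27.3 FPKM in Brg1LKO. Both Brg1LKO values were above both WT values, by a log2 fold change of 0.21, SE 0.32, limma unadjusted p = 0.537. Cd14, the lipopolysaccharide co-receptor of macrophages and hepatocytes, was at 8.20 and 2.72 FPKM in WT against 25.1 and 3.72 FPKM in Brg1LKO. Brg1LKO replicate 1 was far above the other 3 livers, 6.73-fold above the other Brg1LKO liver, and the log2 fold change of 1.02, SE 0.68, limma unadjusted p = 0.157 did not pass the threshold. Il1rn, the IL-1 receptor antagonist, was at 0.824 and 0.288 FPKM in WT against 1.23 and 0.512 FPKM in Brg1LKO, from 57 to 238 estimated reads a liver, again with replicate 1 high in both genotypes (log2 fold change 0.59, SE 0.47, limma unadjusted p = 0.226).

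The receptor chains, Stat3 and Socs3 were each under 2-fold apart between livers of a genotype. Il6ra, the ligand-binding IL-6 receptor chain, was at 7.02 and 7.14 FPKM in WT against 7.93 and 8.36 FPKM in Brg1LKO. Il6st, which codes for gp130, was at 6.04 and 4.82 FPKM in WT against 4.30 and 7.90 FPKM in Brg1LKO, with the Brg1LKO livers on either side of the WT livers. Stat3, at chr11:100885098-100939404, was at 30.6 and 27.0 FPKM in WT against 39.2 and 36.5 FPKM in Brg1LKO. Both Brg1LKO values of Il6ra and of Stat3 were above both WT values. The Stat3 mean was 28.8 ± 2.51 FPKM in WT and 37.9 ± 1.90 FPKM in Brg1LKO livers (SD, n = 2), a 1.32-fold difference (log2 fold change 0.40, SE 0.32, limma unadjusted p = 0.241), and the Il6ra log2 fold change was 0.20, SE 0.33, limma unadjusted p = 0.555. Socs3, the STAT3-induced inhibitor of the pathway, was at 19.3 and 13.2 FPKM in WT against 15.7 and 17.5 FPKM in Brg1LKO, with overlapping genotypes (log2 fold change 0.053, SE 0.34, limma unadjusted p = 0.878, with the sign changed to −0.0053 under quantile normalization). Lrg1, a secreted leucine-rich glycoprotein induced by IL-6, was at 1060.1 and 523 FPKM in WT against 1057 and 796 FPKM in Brg1LKO, with WT replicate 2 as the low liver (log2 fold change 0.30, SE 0.36, limma unadjusted p = 0.423). Over all 35 genes, both Brg1LKO values lay above both WT values in 4 (Stat3, Mt2, Lbp and Il6ra, 11.4%), and in 10.7% of all genes tested. None of the 35 had both Brg1LKO values below both WT values, so 11.4% of the 35 were apart in either direction, against 20.7% of all genes tested. After median-ratio rescaling of the livers, 0 of the 35 were apart in either direction, against 29.0% of all genes tested, where the unscaled values gave 4 of the 35 and 20.7%.

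Negative acute-phase proteins were close to level in the 4 livers. Alb, albumin, was at 12486 and 10709.9 FPKM in WT against 11976 and 12436 FPKM in Brg1LKO. Ttr, the thyroxine carrier transthyretin, was at 662 and 737 FPKM in WT against 685 and 691 FPKM in Brg1LKO. Rbp4, the retinol carrier that travels with transthyretin, was at 1089 and 1647 FPKM in WT against 1119 and 1406 FPKM in Brg1LKO. No liver stood out in these 3 genes beyond WT replicate 2 for Rbp4. Ahsg, the mineral-binding glycoprotein fetuin-A, was at 1743 and 1532 FPKM in WT against 1425 and 2022 FPKM in Brg1LKO. Each of the 4 overlapped between genotypes, the log2 fold changes ran from −0.094 to 0.078, and their median was 0.016. Rbp4 and Ttr turned to 0.033 and 0.11 with an equal FPKM total outside the 36 genes, Ttr to 0.013 under median-ratio rescaling, and Ahsg to −0.16 under quantile normalization. The median of the 31 positive acute-phase and IL-6/STAT3 genes tested was 0.33, falling below 0 (−0.13) when WT replicate 2 was left out and standing at 0.81 when the other WT liver was. The 32 genes other than these 4 held 5.89% and 2.27% of the FPKM total in WT against 5.83% and 4.56% in Brg1LKO. The 4 negative genes held 3.61% and 3.07% in WT against 3.53% and 3.91% in Brg1LKO.

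**Figure D3:**
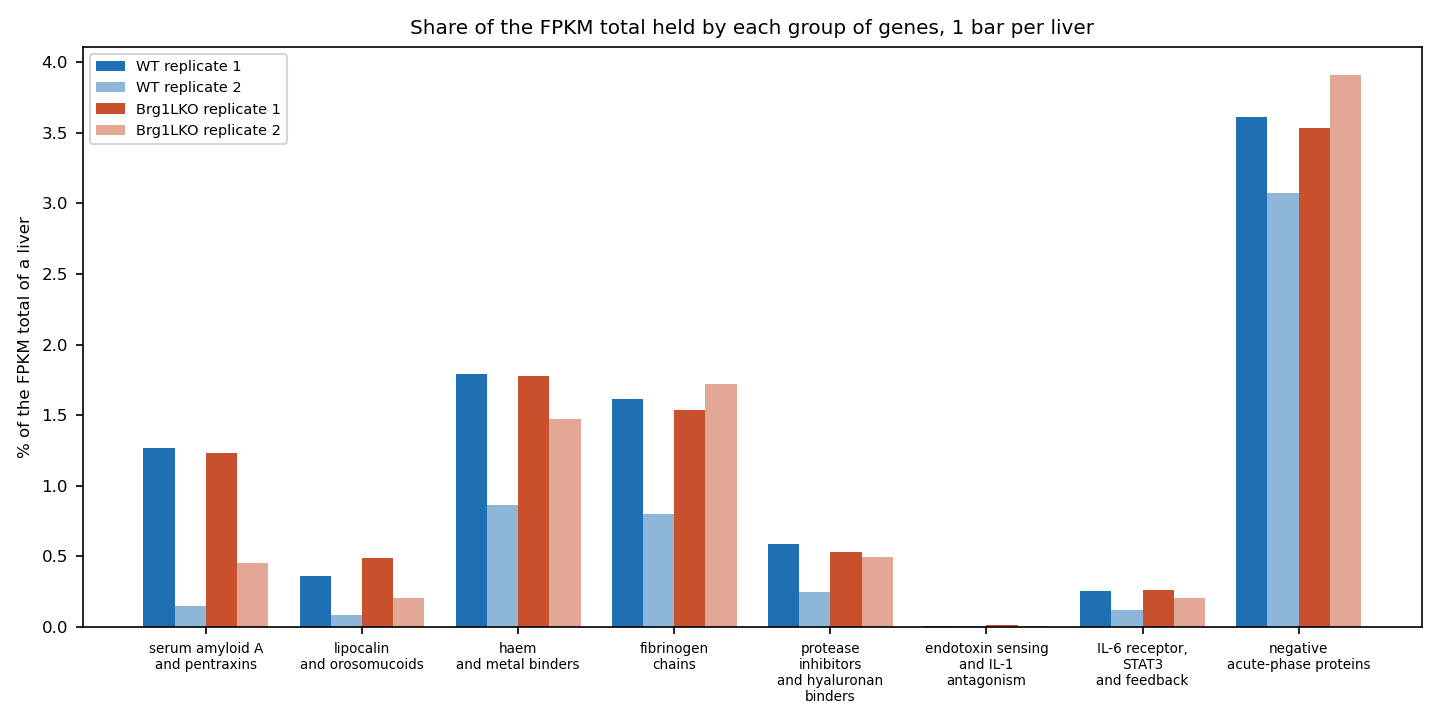
Share of each liver's FPKM total held by the 8 groups of genes, as bars from 0, with WT in blue, Brg1LKO in red and replicate 2 in the paler shade. Serum amyloid A and pentraxins held 1.27% and 0.147% in WT against 1.23% and 0.451% in Brg1LKO, and WT replicate 2 had the smallest bar in all 8 groups.

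Much of the spread within a genotype was shared by many of these genes. WT replicate 2 was the lowest liver in 27 of the 35 genes, against 9.06% of all genes tested. The highest liver was Brg1LKO replicate 1 in 13 of the 36 genes, WT replicate 1 in 11, Brg1LKO replicate 2 in 9 and WT replicate 2 in 3. No share over all genes was taken for the highest liver. Replicate 1 was above replicate 2 in both genotypes in 19 of the 35, against 6.32% of all genes, and replicate 2 was above in both in 4. The WT livers were over 2-fold apart in 16 of the 35 genes, against 6.36% of all genes. The Brg1LKO livers were over 2-fold apart in 11, against 17.2%, and both pairs were in 9, against 2.57%. The median difference between WT livers was 1.89-fold for the 35 genes and 1.27-fold for all genes. Between Brg1LKO livers it was 1.33-fold and 1.37-fold. After median-ratio rescaling WT replicate 2 was the lowest liver in 30 of the 35 genes, against 26.2% of all genes, and replicate 1 was above replicate 2 in both genotypes in 28, against 25.98%.

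**Figure D4:**
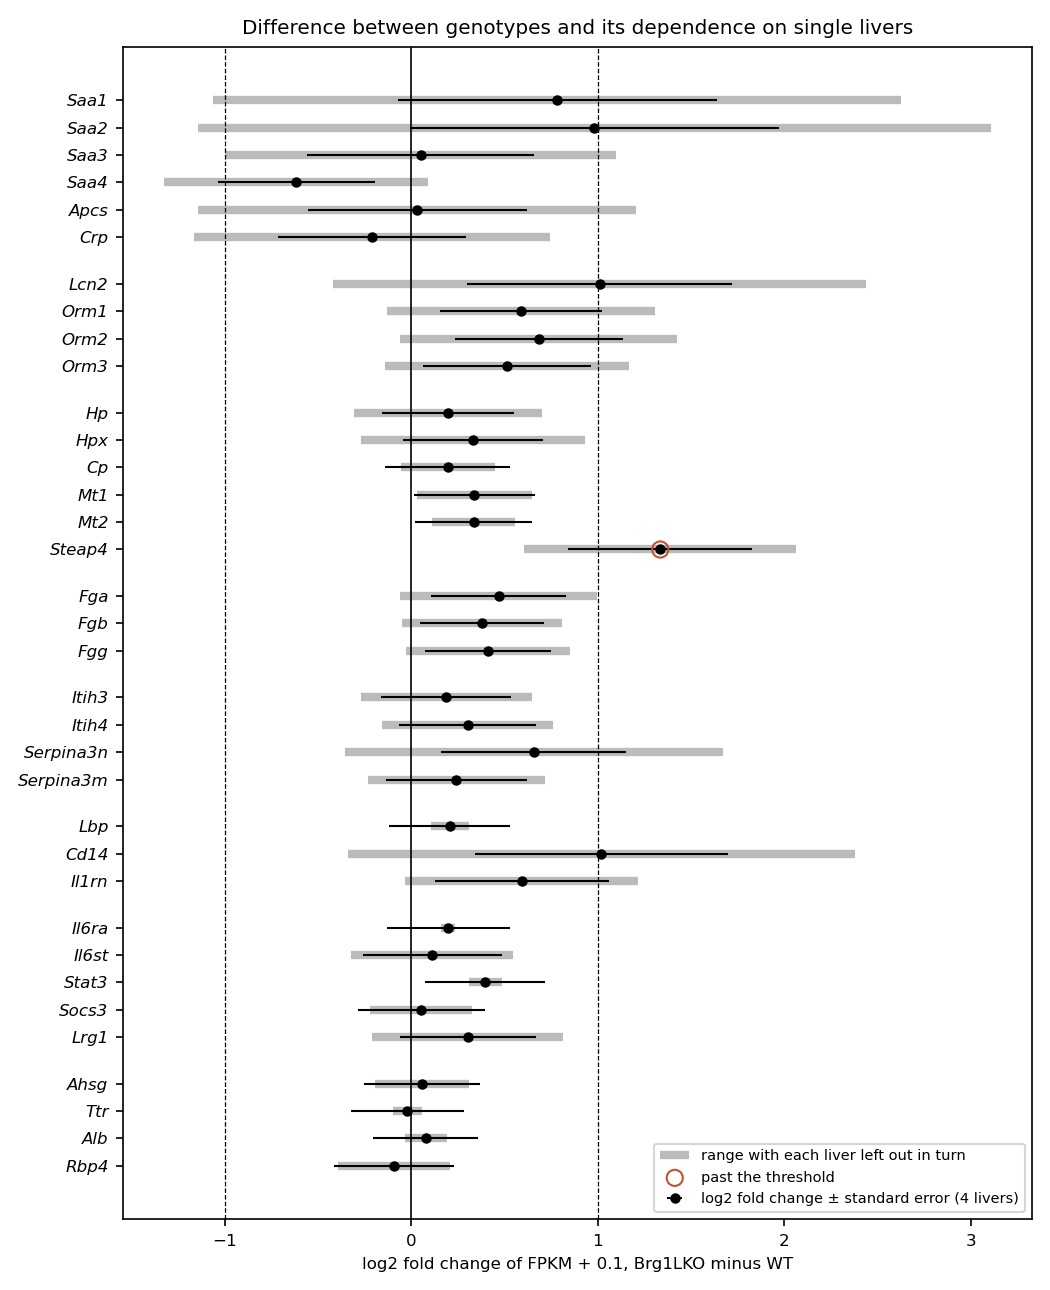
Difference between genotypes on the log2 (FPKM + 0.1) scale for the 35 genes tested, as points with the standard error of the limma fit, and in grey the range of values with each liver left out in turn. Dashed lines mark 2-fold, the circle marks Steap4 as the gene past the threshold, and the grey range of Saa2 runs from −1.15 to 3.11.

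Leaving out 1 liver changed which of these genes passed the threshold. Without WT replicate 1, 9 genes were higher in Brg1LKO livers: Saa1, Saa2, Lcn2, Orm1, Orm2, Orm3, Serpina3n, Cd14 and Steap4, against 0.693% of all genes tested in that fit. Without WT replicate 2 there were 0 of the 35, against 0.595% of all genes in either direction. Without Brg1LKO replicate 2, 8 were higher (Saa1, Saa2, Lcn2, Orm2, Orm3, Cd14, Il1rn and Steap4), against 1.08% of all genes, and 3 lower (Saa4, Apcs and Crp), against 2.58%. Without Brg1LKO replicate 1, Apcs was higher, against 3.28% of all genes, and no other of the 35 genes passed. In these fits the lone liver of a genotype is assumed to vary like the pair of the other.

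The wider pathway was read from lists of related genes. Among 21 genes of the IL-6 family, its receptors, kinases and regulators, 17 were tested. None was higher in Brg1LKO livers, against 0.437% of all genes tested, and 1 was lower, against 0.543%. That gene was Cish, a SOCS-family inhibitor induced by STAT5, at 1.57 and 1.80 FPKM in WT against 0.907 and 0.680 FPKM in Brg1LKO with no overlap (log2 fold change −1.01, SE 0.34, limma unadjusted p = 0.0111). It lost the call without WT replicate 1 (−1.10), WT replicate 2 (−0.91) or Brg1LKO replicate 2 (−0.82), with the 3 other scalings and with a pseudocount of 1. The highest of the list was Osmr, an oncostatin M receptor chain, at 1.49 and 0.862 FPKM in WT against 1.03 and 2.13 FPKM in Brg1LKO (log2 fold change 0.36, SE 0.41, limma unadjusted p = 0.385). Il6 itself was at 0.193 and 0 FPKM in WT against 0.0353 and 0.0127 FPKM in Brg1LKO, or 18, 0, 3 and 1 estimated reads, and was not tested. Of 10 genes of IL-1 and TNF signalling, 9 were tested and 0 passed the threshold. Il1r1, the IL-1 receptor, was the highest at 15.6 and 9.97 FPKM in WT against 38.6 and 14.5 FPKM in Brg1LKO (log2 fold change 0.92, SE 0.44, limma unadjusted p = 0.0555), and Il1b, its ligand, the lowest at 3.53 and 0.720 FPKM in WT against 1.37 and 1.06 FPKM in Brg1LKO (log2 fold change −0.40, SE 0.53, limma unadjusted p = 0.459).

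Of 15 further STAT3 targets, 14 were tested and 0 passed, from Timp1, a metalloprotease inhibitor (log2 fold change −0.51, SE 0.39, limma unadjusted p = 0.219), to Bcl6, a transcriptional repressor, at 0.292 and 0.372 FPKM in WT against 0.624 and 0.672 FPKM in Brg1LKO (log2 fold change 0.80, SE 0.35, limma unadjusted p = 0.0384). Cebpd of that list was not analysed here. Of 20 other acute-phase plasma proteins, 20 were tested and 0 passed. Serpina1e, an alpha-1-antitrypsin paralog, was the lowest at 8719 and 4046 FPKM in WT against 2803 and 4904 FPKM in Brg1LKO (log2 fold change −0.68, SE 0.39, limma unadjusted p = 0.101), and complement C3 the highest at 1019 and 808 FPKM in WT against 1040.3 and 1408 FPKM in Brg1LKO (log2 fold change 0.42, SE 0.31, limma unadjusted p = 0.209). All 9 glucocorticoid targets were tested and 0 passed, from Tsc22d3 (log2 fold change −0.45, SE 0.38, limma unadjusted p = 0.259) to Tat, tyrosine aminotransferase, at 158 and 158 FPKM in WT against 412 and 126 FPKM in Brg1LKO (log2 fold change 0.53, SE 0.45, limma unadjusted p = 0.259). All 5 genes of the zinc and metal response were tested and 0 passed. Slc39a14, a zinc and iron importer of hepatocytes, was the highest at 30.1 and 18.5 FPKM in WT against 55.7 and 37.4 FPKM in Brg1LKO. Its genotypes did not overlap, and its change was under 2-fold (log2 fold change 0.95, SE 0.36, limma unadjusted p = 0.0210). It passed the threshold without WT replicate 1 (1.30), without Brg1LKO replicate 2 (1.24) and with an equal FPKM total outside the 36 genes (1.07), and stood at 0.60 without WT replicate 2 and 0.66 without Brg1LKO replicate 1. Slc30a1, a zinc exporter, was the lowest (log2 fold change −0.37, SE 0.37, limma unadjusted p = 0.330). Some of the other genes named from these lists passed the threshold only in a fit without 1 liver. These were Il1r1 without WT replicate 1 (1.24) or Brg1LKO replicate 2 (1.62), and Il1b (−1.48) and Serpina1e (−1.23) without WT replicate 2. Tat did so without Brg1LKO replicate 2 (1.38). Hamp, a listed STAT3 target described at the end, did so without Brg1LKO replicate 1 (−2.17) or Brg1LKO replicate 2 (1.48).

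Markers of other liver cells were measured beside these genes. Of 11 neutrophil markers, 5 were tested and 0 passed. Their summed level was 11.6 and 4.48 FPKM in WT against 16.7 and 8.27 FPKM in Brg1LKO, the same order of livers as Lcn2. Most of it was S100a9, a calcium-binding protein abundant in neutrophils, at 8.64 and 2.99 FPKM in WT against 12.3 and 6.10 FPKM in Brg1LKO. Of the 5 tested, 3 had a log2 fold change above 0 and 2 below 0. S100a9 was the highest of the list (log2 fold change 0.76, SE 0.48, limma unadjusted p = 0.134). Retnlg was the lowest (log2 fold change −0.21, SE 0.48, limma unadjusted p = 0.668) and had its top value in WT replicate 1. Of the 11, 3 were at 0 in WT replicate 1, 5 in WT replicate 2 and 0 in each Brg1LKO liver. Those at 0 had only 1 to 10 estimated reads in a Brg1LKO liver and were not tested. S100a9 passed the threshold without WT replicate 1 (1.51) or Brg1LKO replicate 2 (1.26). The part of neutrophils in the spread of Lcn2 and the genes that follow it was not tested. Macrophage markers were tested in 11 of 11, of which 3 were higher in Brg1LKO livers, against 0.437% of all genes tested. They were the scavenger protein Cd5l (log2 fold change 1.21, SE 0.49, limma unadjusted p = 0.0282), the complement receptor Vsig4 (log2 fold change 1.00, SE 0.46, limma unadjusted p = 0.0493) and Cd68 (log2 fold change 1.47, SE 0.37, limma unadjusted p = 0.00144). Timd4 was the lowest of the list (log2 fold change 0.56, SE 0.46, limma unadjusted p = 0.246). Both Brg1LKO values were above both WT values in 9 of the 11, against 10.7% of all genes, and below in 0. Without Brg1LKO replicate 2 Cd68 passed, while Cd5l (0.25) and Vsig4 (0.15) did not, nor did either without WT replicate 1 (1.06 and 0.90) or WT replicate 2 (1.36 and 1.10). Cd5l and Vsig4 also lost the call with the 3 other scalings and with no expression filter, and Vsig4 with either other pseudocount and without the trend, while Cd68 passed in each of these. The 11 macrophage markers summed to 48.8 and 49.9 FPKM in WT against 63.2 and 139 FPKM in Brg1LKO, highest in Brg1LKO replicate 2. In that liver Cd14 was at 3.72 FPKM and Saa3 at 19.1 FPKM. The part of macrophages in the spread of these 2 genes was not tested. Hepatocyte markers summed to 11216 and 9853 FPKM in WT against 8623 and 10844 FPKM in Brg1LKO, with 0 of 10 past the threshold, from Serpina1c (log2 fold change −0.25, SE 0.31, limma unadjusted p = 0.447) to Tat. Most of that sum was Serpina1c (6469 and 4548 FPKM in WT, 3891 and 5382 FPKM in Brg1LKO) and Apoa1 (2091 and 1692 FPKM in WT, 1424 and 2098 FPKM in Brg1LKO). Both also stand in the list of other acute-phase plasma proteins. Sinusoidal endothelial markers summed to 39.4, 40.8, 29.7 and 41.5 FPKM in the same order, and 0 of 10 passed, from Oit3 (log2 fold change −0.50, SE 0.41, limma unadjusted p = 0.245) to Stab2 (log2 fold change −0.0078, SE 0.37, limma unadjusted p = 0.983). Oit3 passed without Brg1LKO replicate 2 (−1.11) and Timd4 without Brg1LKO replicate 1 (1.37).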

How the data were processed

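RNA of liver was sequenced by the authors in 2 WT and 2 Brg1LKO mice. Per the study's methods, reads were trimmed with Trimmomatic and aligned to GRCm38 with HISAT2, and FPKM was calculated with Cufflinks. The submitters' processing notes list HISAT2 2.0.4 and StringTie 2.1.4. The methods name a stranded Illumina mRNA library and the labels a BGIseq protocol. The deposited FPKM table, 1 column per liver, was the only file used. The labels number the replicates, and per the study each genotype had 2 mice. SEs and p-values do not measure the spread of a gene between these 4 livers alone. The model moves the variance of each gene toward that of all genes of similar level. For genes that vary more than most, such as Saa1 and Steap4, the SE is smaller than their own livers would give.

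Tests used limma 3.58.1 in R 4.3.3 with a trended prior on log2(FPKM + 0.1), over 12346 genes of mean FPKM 0.1 or more, with Benjamini-Hochberg adjustment beside the threshold. Fold changes on this scale understate those of low genes. Depth was estimated from FPKM steps of transcripts of 2000 bases or more, where 88.4% to 89.5% of low values came out within 0.1 of a whole read. Estimated reads cover counting error only. The script was tested on simulated data in which every gene had the same spread and varied independently of the others. That test does not show how the fit behaves for genes that vary more than most and together, such as Saa1 and Saa2.

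Groups were taken from the titles. Every one of the 36 genes was named, and, of each related list, the genes past the threshold and those of highest and lowest log2 fold change. The genes and lists were chosen with earlier results of these data known. Alternatives were other pseudocounts, filters and scalings, no trend, a replicate block and each liver left out. Promoters came from RefSeq, with Hp, Ttr, Lbp, Cd14, A2m, Serpina3m and Orm1 unmatched.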

Additional observations from a re-analysis of the deposited data

How the results depend on the processing

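The depth gave at least 57 estimated reads a liver for the 34 of the 35 genes tested that had an estimate (Itih3 had none), and each genotype has 2 livers. The number of the 35 genes past the threshold was 0 with no filter on low values, with median-ratio rescaling, with quantile normalization and with an equal FPKM total outside the 36 genes. It was 0 to 11 with each liver left out. Over all genes it was 18 with a pseudocount of 1, 80 with no filter and 68 with a filter at mean FPKM 1, and 73 to 557 with each liver left out. Genes with Brg1LKO values apart from WT values were 0 with median-ratio rescaling, against 29.0% of all genes, 2 with quantile normalization, against 29.4%, and 5 with the equal total, against 27.7%. They were 11 to 30 with each liver left out, where 48.5% to 69.4% of all genes were apart, so those counts cannot be set beside the 4 from all livers. The median of the positive acute-phase and IL-6/STAT3 genes was −0.13 to 0.81 with each liver left out, below 0 without WT replicate 2. That of the negative genes was −0.19 with quantile normalization and −0.11 to 0.088 with each liver left out. Signs turned for Ttr (0.013) and Stab2 (0.024) with median-ratio rescaling, for Ahsg (−0.16), Saa3 (−0.031), Socs3 (−0.0053), Serpina1c (0.011) and Stab2 (0.0069) with quantile normalization, for Rbp4 (0.033), Ttr (0.11) and Stab2 (0.11) with the equal total, and for Stab2 (0.0043) with a pseudocount of 1. The cause was not tested. Of 525 log2 fold changes of named genes under alternatives other than leaving out a liver, 489 kept direction and side of the threshold.

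With each liver left out, the sign of the log2 fold change turned for 29 of the 35 genes, over ranges of −0.20 to 0.31 for Ahsg, −0.033 to 0.19 for Alb, −1.14 to 1.21 for Apcs, −0.34 to 2.38 for Cd14, −0.058 to 0.45 for Cp, −1.16 to 0.74 for Crp, −0.060 to 0.996 for Fga, −0.050 to 0.81 for Fgb, −0.029 to 0.85 for Fgg, −0.31 to 0.70 for Hp, −0.27 to 0.93 for Hpx, −0.034 to 1.22 for Il1rn, −0.32 to 0.54 for Il6st, −0.27 to 0.65 for Itih3, −0.16 to 0.76 for Itih4, −0.42 to 2.44 for Lcn2, −0.21 to 0.81 for Lrg1, −0.13 to 1.31 for Orm1, −0.060 to 1.42 for Orm2, −0.14 to 1.16 for Orm3, −0.39 to 0.20 for Rbp4, −1.06 to 2.63 for Saa1, −1.15 to 3.11 for Saa2, −0.997 to 1.10 for Saa3, −1.32 to 0.091 for Saa4, −0.23 to 0.72 for Serpina3m, −0.36 to 1.67 for Serpina3n, −0.22 to 0.33 for Socs3 and −0.10 to 0.055 for Ttr. Steap4 kept its sign, at 0.61 to 2.06. Of the other genes named, it turned for 11, over ranges of −2.17 to 1.48 for Hamp, −1.48 to 0.67 for Il1b, −0.094 to 3.11 for Nnmt, −1.11 to 0.12 for Oit3, −0.12 to 0.85 for Osmr, −1.04 to 0.62 for Retnlg, −0.50 to 0.0088 for Serpina1c, −0.41 to 0.40 for Stab2, −0.33 to 1.38 for Tat, −0.25 to 1.37 for Timd4 and −0.91 to 0.0080 for Tsc22d3.

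The replicate numbers are shared between genotypes by label alone, and with only 2 of them they were not taken as pairs. The differences between replicate 1 and 2 in WT and in Brg1LKO livers had r = 0.0307 over 12346 genes, and r = 0.712 over the 35 genes, which share these 4 libraries. With the replicate number as a block, 3 of the 35 genes passed the threshold (Cd14, Lcn2 and Steap4), of 108 in all.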

Other observations

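Nnmt, which codes for a methyltransferase of nicotinamide and stood in none of the lists, was singled out after its values were seen, as a gene over 3-fold higher in replicate 1 than in replicate 2 of both genotypes. It was at 104 and 11.2 FPKM in WT against 229 and 41.5 FPKM in Brg1LKO. Its livers ran from Brg1LKO replicate 1 through WT replicate 1 and Brg1LKO replicate 2 to WT replicate 2, as in Lcn2 and the orosomucoids. The genotypes overlapped, and it did not pass the threshold, with a log2 fold change of 1.51 (limma unadjusted p = 0.0915). It passed without WT replicate 1 (3.11) or Brg1LKO replicate 2 (2.74), and with a filter at mean FPKM 1 or the replicate block.

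Hamp, which codes for the iron hormone hepcidin, was 1 of the 15 further STAT3 targets listed. It was also singled out after its values were seen. It was at 596 and 258 FPKM in WT against 1092 and 86.9 FPKM in Brg1LKO. The Brg1LKO livers were 12.6-fold apart and lay on either side of the WT livers, with a log2 fold change of −0.35 (SE 0.79, limma unadjusted p = 0.668). The means went the other way, at 427 ± 239 FPKM in WT and 589.6 ± 711 FPKM in Brg1LKO (SD, n = 2). Without Brg1LKO replicate 1 it passed the threshold as lower (−2.17), and without Brg1LKO replicate 2 as higher (1.48).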
